A study of Homo sapiens with 6 samples.

Results

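Inflammatory chemokines and cytokines were examined as a set of 10 genes in A549, a long-established line of human lung adenocarcinoma cells. The set was defined by name, not by a rule on measured values, but with earlier results of these data known. It consists of 5 CXC chemokines (CXCL1, CXCL2, CXCL3, CXCL5 and CXCL8), 2 CC chemokines (CCL2 and CCL20) and 3 cytokines of the IL-6 family (IL6, IL11 and LIF), out of 58174 genes listed. PolyA RNA-seq was available from 3 libraries of parental A549 cells (Ctrl) and 3 libraries of A549 cells that lack the MIR21 gene, the source of the microRNA miR-21-5p, after CRISPR/Cas9 deletion (MIR21-KO). Both groups were grown in the same serum-supplemented medium, received no stimulus per the labels, and were harvested 48 h after seeding. MIR21-KO cells go back to single sorted cells, whereas Ctrl cells are the uncloned parental population, and how many clones the 3 MIR21-KO libraries represent is unknown, so that differences of a clone and effects of the deletion cannot be told apart.

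Chemokines are small secreted proteins that guide the migration of leukocytes along a gradient. The CXC chemokines of the set carry an ELR motif before their first cysteines and attract neutrophils through the receptors CXCR1 and CXCR2, CCL2 attracts monocytes through CCR2, and CCL20 attracts CCR6-bearing lymphocytes and dendritic cells. IL-6, IL-11 and LIF each bind a receptor of their own and signal through the common chain gp130, encoded by IL6ST, to JAK kinases and STAT3. In epithelial cells most of these genes are induced by the transcription factor NF-kappaB together with AP-1 and C/EBP factors, and their mRNAs are short-lived because AU-rich elements in the 3' UTR recruit decay factors such as tristetraprolin, the product of ZFP36. MiR-21-5p pairs with its target mRNAs through its seed.

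Sequence words linked to these modes of control are shown first, some of them held by only a few of the members. Promoters of 250 bases before the RefSeq start (build GRCh38.p14) were on hand for 8 of the 10 genes, all but CCL2 and LIF. Both strands were searched for the NF-kappaB consensus GGGRNNYYCC, where R is A or G, Y is C or T and N any base. It was found in 6 of these 8 promoters and in 9.96% of all 35116 RefSeq promoters of that length. The AP-1 motif TGANTCA was found in 2 of 8 (CXCL8 and IL11) and in 6.57% of all promoters. The C/EBP motif TTNNGNAA was found in 2 of 8 (CXCL2 and IL6) and in 33.2% of all, and TATAAA in 2 of 8 (CXCL8 and CCL20) and in 10.7% of all. The 30 bases around each NF-kappaB or AP-1 match are given 5' to 3' in the direction of the gene, with the matched letters in capitals.
CXCL1, NF-kappaB, chr4:73869304-73869333, plus strand: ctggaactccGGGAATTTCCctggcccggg
CXCL2, NF-kappaB, chr4:74099254-74099283, minus strand: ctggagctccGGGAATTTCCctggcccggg
CXCL3, NF-kappaB, chr4:74038749-74038778, minus strand: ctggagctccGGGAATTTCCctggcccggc
CXCL5, NF-kappaB, chr4:73998749-73998778, minus strand: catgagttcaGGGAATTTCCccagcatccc
IL6, NF-kappaB, chr7:22727117-22727146, plus strand: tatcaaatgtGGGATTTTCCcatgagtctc
CCL20, NF-kappaB, read on the opposite strand, chr2:227813753-227813782, plus strand: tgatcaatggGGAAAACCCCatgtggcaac
CXCL8, AP-1, chr4:73740421-73740450, plus strand: aggaagtgtgaTGACTCAggtttgccctga
IL11, AP-1, chr19:55370541-55370570, minus strand: ggcagggagggTGAGTCAggatgtgtcagg
CXCL1, CXCL2, CXCL3 and CXCL5 held the same 10 letters, GGGAATTTCC, and in the first 3 of these genes the flanking bases were also nearly the same. A match is a description of letters and not a site of binding. Nor does the lack of a match mean that a site is absent. The promoter of CXCL8 held TGGAATTTCC, which misses the NF-kappaB consensus only in its first letter.

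The 3' UTRs of the members all held the AU-rich pentamer ATTTA, at densities that differed widely. A miR-21-5p seed match of at least 6 bases was held by 2 of the 10, beside 29.4% of genes. The longest annotated 3' UTR (GENCODE 29, GRCh38) of each of 11657 tested protein-coding genes was searched on the transcribed strand. This pentamer was found in 10 of 10 members against 74% of genes, at a median of 6.66 per kb in the members against 1.513 in all genes. It ran from 2.11 per kb in CCL2 and 2.19 in LIF to 13.9 in CXCL2 and 14.0 in IL6. The share of A and T ran from 43.3% in LIF, 48.8% in CCL2 and 50.4% in IL11, all below the median of 56.2% for all genes, to 71.6% in IL6, while the members' 3' UTRs were shorter (median 713.5 against 1621 bases). The longer AU-rich nonamer TTATTTATT was found in 6 of 10 members (CXCL1, CXCL2, CXCL3, CXCL8, IL11 and LIF) against 9.17% of genes, with 6 overlapping or separate copies in IL11 and 5 in CXCL2. The 8mer match of miR-21-5p, ATAAGCTA, was held by 2.98% of genes and, among the members, by CCL20. CXCL5 held the shorter 7mer TAAGCTA, found in 8.46% of genes, and another 6mer, and the other 8 members held none of these words. The 6mer TAAGCT, part of both longer words, was held by 29.4% of genes, so the lack of a match sets the members little apart. The mature microRNA is shown with its seed, bases 2 to 8, in capitals, followed by the seed matches and by 1 AU-rich stretch from each of 5 members with the matched letters in capitals.
miR-21-5p, chr17:59841273-59841294, plus strand: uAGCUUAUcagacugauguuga
CCL20, 8mer, chr2:227817333-227817362, plus strand: actaattttccATAAGCTAttttggtttag
CXCL5, 7mer, chr4:73996137-73996166, minus strand: atatttctgttTAAGCTAtttcacctttgt
CXCL1, nonamer, chr4:73871013-73871042, plus strand: atgtcagttgTTATTTATTgaaatgatttc
CXCL2, nonamer, chr4:74097245-74097274, minus strand: atgtcagttgTTATTTATTgaaatgatttc
CXCL3, nonamer, chr4:74036772-74036801, minus strand: atgtcagttgTTATTTATTcaaattatctc
CXCL8, nonamer, chr4:73742664-73742693, plus strand: atgtaaagtaTTATTTATTtgaatctacaa
IL11, nonamer, chr19:55365938-55365967, minus strand: tcttatttatTTATTTATTtcagtactggg
The windows of CXCL1 and CXCL2 were identical over all 30 bases.

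The values reported here are FPKM, that is fragments scaled to gene length and to a library size, as the authors deposited them. Between 10631667 and 14345209 reads per library lay behind them, and a count of 0 on a gene of 1 kb allows a level of up to 0.219 to 0.279 FPKM (3 reads, counting error only). The library size behind the values was not the plain read total. It was about 1.01 times the summed reads in each Ctrl library and 0.950, 0.984 and 1.03 times in MIR21-KO replicates 1 to 3. MIR21 itself was listed at 0 in all 6 libraries, Ctrl included, so that these polyA libraries do not check the deletion. Of the lung epithelial and A549 markers, KRT8, KRT18 and AKR1B10 were high in both groups. Their means were 484, 673 and 983 FPKM in Ctrl and 414, 422 and 730 FPKM in MIR21-KO. Others of the list were low, with Ctrl means of 1.19 FPKM for EPCAM, 0.595 for NAPSA, 0.0403 for SFTPC and 0 for SFTPB, and NKX2-1 was at 0 in all libraries. MIR21-KO replicates differed more among themselves than Ctrl replicates: chi-square values over genes, per degree of freedom, were 32.8 between MIR21-KO replicates 1 and 3 and at most 5.30 between Ctrl libraries. No label states that the libraries of a group came from separate cultures, so p-values measure only the spread between these libraries, which may be technical.

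All 10 members were transcribed in unstimulated A549 cells, over a range of about 3 orders of magnitude. In Ctrl cells the order of mean levels per gene length was CXCL5 (652 FPKM), CXCL1 (140 FPKM), CXCL8 (39.7 FPKM), CXCL2 (28.6 FPKM), LIF (24.2 FPKM), CXCL3 (23.7 FPKM), IL11 (21.3 FPKM), CCL2 (18.3 FPKM), IL6 (1.33 FPKM) and CCL20 (0.564 FPKM). Of the neighbours in this order, CXCL2 and LIF overlapped between libraries, as did LIF and CXCL3, and the others did not. In MIR21-KO cells IL11 moved from rank 7 to rank 3 and CXCL3 from rank 6 to rank 8. There, CXCL2 and LIF overlapped, as did CCL2 and CXCL3. For CXCL3 (2219 bases) and CCL2 (1986 bases) the length behind the FPKM spans the whole annotated gene, introns included. Their level as spliced mRNA may thus be understated beside that of other members, and the middle ranks depend on these lengths. In Ctrl replicate 1 only 1 of the 10 members lay above its group mean, against 8 of 10 in Ctrl replicate 2, and in the MIR21-KO libraries 4 or 5 did. In Ctrl replicate 1 the member above was CCL20, on 16 reads. The others deviated by -0.0092 (CXCL8) to -0.246 (CXCL2) on the log2 scale. The share over all genes was not computed, so these counts do not show a shift of a library. The plot of levels by library shows how far apart the members lie and how small the shifts of most of them were beside that range.

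**Figure D1:**
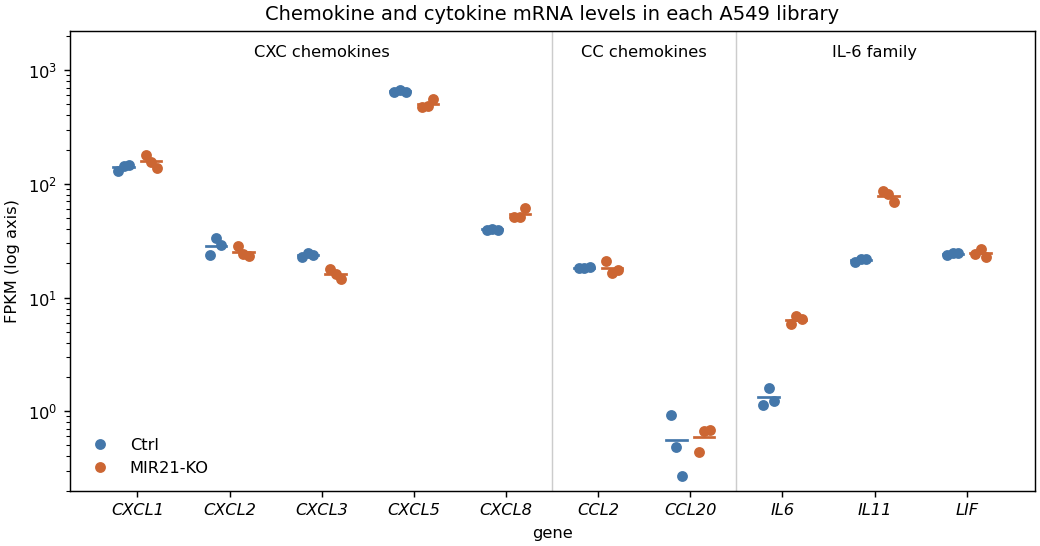
Level of each member in FPKM (log axis) in the 3 Ctrl libraries and the 3 MIR21-KO libraries, each point a library and each horizontal bar a group mean. IL6 and IL11 are the genes whose groups lie furthest apart, and CXCL5 is the highest member in every library.

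Deletion of MIR21 was accompanied by a rise of IL6 and IL11, a fall of CXCL3, and no call for the other 7 members. Genes were tested on log2(FPKM + 0.1) by limma over all 16006 genes whose mean reached 0.5 FPKM, all members included, and called at a Benjamini-Hochberg FDR under 0.01 (two-sided). Fold changes on this scale understate changes of low genes. By this rule 2 of 10 members were higher in MIR21-KO, against 7.66% of all genes, and 1 of 10 was lower, against 8.38% of all genes, or 3 of 10 against 16% in both directions. In 5 of 10 members the groups did not overlap, against 48.1% of all genes, so this count stood near the background. The median log2 fold change of the members was 0.09, beside -0.02 for all genes tested. Since RNA was taken from bulk cells, fewer cells making a transcript and less of it per cell cannot be told apart.

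**Figure D2:**
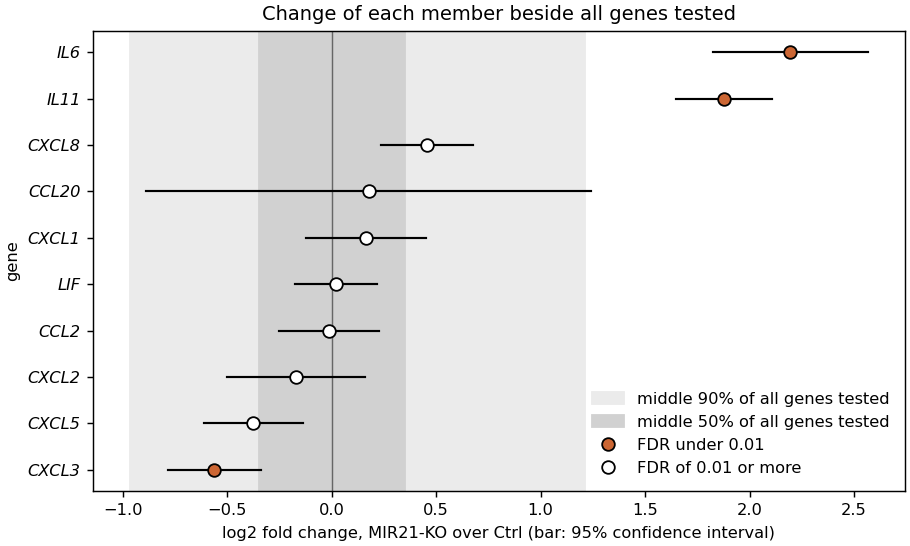
Log2 fold change of each member (MIR21-KO over Ctrl) with its 95% confidence interval, filled where the FDR was under 0.01, over grey bands that hold the middle 50% and 90% of all genes tested. IL6 at 2.19 and IL11 at 1.88 lie beyond the upper end of the 90% band at 1.21.

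Among the IL-6 family cytokines, IL6 and IL11 rose and LIF was not called. IL6 (ENSG00000136244, chr7:22725884-22732002, plus strand) encodes the pleiotropic cytokine that drives the acute phase response. Its level was 1.14, 1.62 and 1.24 FPKM in Ctrl replicates 1 to 3 and 5.85, 6.91 and 6.45 FPKM in MIR21-KO replicates 1 to 3. Every MIR21-KO library was above every Ctrl library. The ratio of the means was 4.81 and the log2 fold change 2.19 ± 0.16 (SE), with a 95% confidence interval of 1.82 to 2.57 and an FDR of 0.000237. The reads behind these values ranged from 30 to 175 per library. The mean of IL6 over all libraries was above that of 45.7% of the genes tested. By the size of its log2 fold change it ranked 297 of 16006 genes. The antisense genes STEAP1B and AC073072.1 overlap exons of IL6 and were listed at means of 0 and 0.116 FPKM in Ctrl and 0.0811 and 0.558 FPKM in MIR21-KO. The libraries were strand-specific per the labels, but the strand setting of the counting is not given in the sources used here, and the part of these genes in the result was not tested.

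IL11 (ENSG00000095752, chr19:55364389-55370463, minus strand), a cytokine known for its roles in the stroma, in fibrosis and in epithelial repair, was the member with the largest gain in FPKM. It was measured at 20.4, 22.0 and 21.6 FPKM in Ctrl replicates 1 to 3 and at 85.7, 81.6 and 69.5 FPKM in MIR21-KO replicates 1 to 3. The groups were far apart, and replicate 3 was the lowest of the MIR21-KO libraries. The means differed 3.70-fold, and the log2 fold change was 1.88 ± 0.10 (SE; 95% confidence interval 1.65 to 2.11; FDR 7.88e-05). With 631 to 3120 reads per library, IL11 was much better covered than IL6. Its share of the members' summed FPKM went from 2.22 to 2.30% in Ctrl to 7.66 to 9.63% in MIR21-KO.

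LIF (ENSG00000128342, chr22:30240447-30246851, minus strand), named for its inhibition of leukemia cell growth and known for its role in embryo implantation, stood at 23.6, 24.6 and 24.4 FPKM in Ctrl and at 24.4, 26.8 and 22.6 FPKM in MIR21-KO. The MIR21-KO libraries lay on both sides of the Ctrl libraries. The log2 fold change was 0.02 ± 0.08 (SE), its 95% confidence interval, -0.18 to 0.22, leaves out changes of the size seen for IL6 and IL11, and the FDR was 0.880. The sign of this small value turned, to -0.017 with scaling by total reads and to -0.045 without MIR21-KO replicate 2.

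The 5 CXC chemokines did not move in one direction. CXCL3 (ENSG00000163734, chr4:74036589-74038807, minus strand), a neutrophil attractant also known as GRO-gamma, was at 22.7, 24.8 and 23.5 FPKM in Ctrl and at 17.7, 16.0 and 14.5 FPKM in MIR21-KO. All MIR21-KO libraries were below all Ctrl libraries. Its log2 fold change was -0.56 ± 0.09 (SE; 95% confidence interval -0.78 to -0.34; FDR 0.00531), a ratio of means of 0.678. The call did not hold in all settings. It was lost without Ctrl replicate 1 (FDR 0.0218), 2 (0.0273) or 3 (0.0272) and without MIR21-KO replicate 2 (0.0298), although the log2 fold change then stayed between -0.59 and -0.53. Most genes lost their call in these fits: of 2568 genes called, 883, 903, 860 and 763 kept it, in the same order. Calls of other genes lost in these fits, given below, stand beside the same counts. The call of CXCL3 was also lost with no filter on low values (FDR 0.0115) and in limma without trend and robust fitting (FDR 0.0140).

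CXCL5 (ENSG00000163735, chr4:73995642-73998779, minus strand), known as ENA-78 and first described in epithelial cells, was by far the most abundant member. It was measured at 642, 676 and 637 FPKM in Ctrl and at 475, 483 and 554 FPKM in MIR21-KO. The groups did not overlap, and MIR21-KO replicate 3 lay closest to Ctrl. The log2 fold change of -0.37 ± 0.10 (SE; 95% confidence interval -0.61 to -0.14) came with an FDR of 0.0288 and was not called. It passed the threshold without MIR21-KO replicate 3 (log2 fold change -0.44, FDR 0.00353) and with voom on the recovered reads (FDR 0.00806). CXCL5 accounted for 67.8 to 69.6% of the members' summed FPKM in Ctrl and for 53.3 to 61.1% in MIR21-KO, while the sum itself was 922 to 985 FPKM in Ctrl and 862 to 907 FPKM in MIR21-KO.

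CXCL8 (ENSG00000169429, chr4:73740506-73743716, plus strand) encodes interleukin-8, the prototype neutrophil attractant. Ctrl libraries gave 39.5, 40.0 and 39.7 FPKM, and MIR21-KO libraries gave 51.3, 51.2 and 61.7 FPKM. Each MIR21-KO value was above each Ctrl value, with replicate 3 the highest. The log2 fold change was 0.46 ± 0.09 (SE; 95% confidence interval 0.24 to 0.68), opposite in sign to that of CXCL3 and CXCL5, and the FDR of 0.0107 missed the threshold narrowly. It passed without MIR21-KO replicate 3 (log2 fold change 0.37, FDR 0.00344), with voom (FDR 0.00488), with a minimum mean of 1 FPKM (FDR 0.00958) or 10 reads (FDR 0.00832), and among protein-coding genes alone (FDR 0.00507).

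CXCL1 (ENSG00000163739, chr4:73869393-73871242, plus strand), or GRO-alpha, was at 130, 144 and 145 FPKM in Ctrl and at 181, 155 and 137 FPKM in MIR21-KO. CXCL2 (ENSG00000081041, chr4:74097035-74099293, minus strand), or GRO-beta, was at 23.9, 33.2 and 28.8 FPKM in Ctrl and at 28.3, 24.4 and 23.1 FPKM in MIR21-KO. For both genes the groups overlapped, and MIR21-KO replicate 1 was the highest and replicate 3 the lowest of its group. The log2 fold change of CXCL1 was 0.17 ± 0.12 (SE; 95% confidence interval -0.12 to 0.45; FDR 0.332). That of CXCL2 was -0.17 ± 0.14 (SE; 95% confidence interval -0.50 to 0.16; FDR 0.388).

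These 3 GRO genes are close paralogs, and their values carry an uncertainty of counting. Of all windows of 50 bases in their transcripts, 4.81% in CXCL1, 12.5% in CXCL2 and 6.01% in CXCL3 occurred identically in at least one of the other two. Reads from such windows could have been split or dropped by the counting. CXCL8, CCL2, CCL20, IL6 and LIF shared no such window with another gene, CXCL5 shared 1.13% and IL11 1.39%.

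All 5 CXC members lie in a cluster on chromosome 4 that spans 359 kb from CXCL8 to CXCL2. Of the 16 annotated genes of this stretch in the table, 6 were high enough to be tested, the 5 members and PPBP, the precursor of platelet basic protein. PPBP was measured at a mean of 1.65 FPKM in Ctrl and 1.06 FPKM in MIR21-KO (log2 fold change -0.75 ± 0.52, SE; FDR 0.317). CXCL6, the chemokine GCP-2, lies between CXCL8 and CXCL1 and had means of 0.0142 and 0.0684 FPKM, close to nothing beside its neighbours. The plot of the cluster shows that genes of very high and very low level stood side by side, and that CXCL8 and CXCL3 at different places of the stretch had fold changes of opposite sign.

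**Figure D3:**
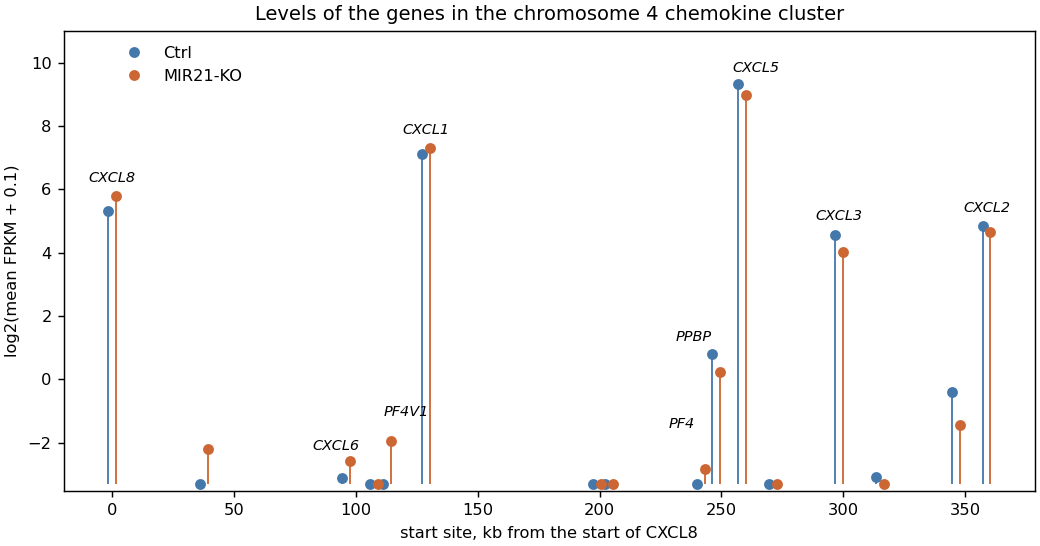
Mean level, as log2(FPKM + 0.1), of the 16 genes annotated between CXCL8 and CXCL2, placed by distance in kb from the start of CXCL8, with protein-coding genes labelled and points drawn side by side for Ctrl and MIR21-KO. The 5 members stand above 4 on this scale in both groups, and all other genes stay below 1.

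The CC chemokines CCL2 and CCL20 were not called. CCL2 (ENSG00000108691, chr17:34255218-34257203, plus strand), the monocyte attractant MCP-1, was at 18.1, 18.3 and 18.5 FPKM in Ctrl and at 20.9, 16.5 and 17.4 FPKM in MIR21-KO. The Ctrl values were very close to each other, and the MIR21-KO values lay around them. The log2 fold change was -0.01 ± 0.10 (SE; 95% confidence interval -0.25 to 0.23; FDR 0.940), and its sign turned to 0.057 without MIR21-KO replicate 2 and to 0.019 without MIR21-KO replicate 3.

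CCL20 (ENSG00000115009, chr2:227805739-227817564, plus strand), the only member with an 8mer match of miR-21-5p, was at 0.936, 0.485 and 0.272 FPKM in Ctrl and at 0.437, 0.669 and 0.689 FPKM in MIR21-KO. These values rested on 5 to 16 reads per library, and the groups overlapped. The log2 fold change of 0.18 ± 0.45 (SE; FDR 0.793) had a 95% confidence interval of -0.89 to 1.24. This interval, wide at this depth, holds a rise of 1 on this scale and leaves out a fall of 1 only narrowly. Without Ctrl replicate 3 its sign turned to -0.18.

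Other chemokines were nearly silent in these cells. Of 12 other CXC chemokines, 9 had at most 3 reads in each library and 2 could be tested, CXCL16 (means of 4.26 FPKM in Ctrl and 4.06 FPKM in MIR21-KO; FDR 0.705) and PPBP. Of 26 other CC, XC and CX3C chemokines in the table, 23 had at most 3 reads in each library and only CCL26, an eosinophil attractant, was tested (means of 3.48 and 1.80 FPKM; log2 fold change -0.96 ± 0.26, SE; FDR 0.0322). None of these 3 was called by limma on FPKM or by voom, CCL26 being the only one with an unadjusted p under 0.05 (0.00868), and the count for the list of CCL26 was 1 without MIR21-KO replicate 1.

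Among 35 other inflammatory cytokines 12 were tested, of which IL15 rose and CSF2 fell, a count near the 16% of all genes called, with a median log2 fold change of -0.18. IL15, a growth factor of natural killer and memory T cells, went from 1.48 ± 0.10 FPKM in Ctrl to 3.18 ± 0.18 FPKM in MIR21-KO (SD, n = 3; log2 fold change 1.05 ± 0.12, SE; FDR 0.00141). CSF2, which encodes GM-CSF, went from 2.49 ± 0.12 to 0.917 ± 0.200 FPKM (SD, n = 3; log2 fold change -1.37 ± 0.19, SE; FDR 0.00273). The values of CSF2 rested on only 7 to 27 reads per library. The call of IL15 was lost without MIR21-KO replicate 2 (FDR 0.0128), and that of CSF2 without Ctrl replicate 1 (0.0177), 2 (0.0142) or 3 (0.0173) or MIR21-KO replicate 2 (0.0116). The cytokines at 5 FPKM or more, IL18, IL32, CSF1, MIF, CLCF1 and EBI3, were not called, with log2 fold changes between -0.67 for EBI3 and 0.19 for CLCF1. CLCF1, a further ligand of the gp130 family, was at 15.6 ± 0.2 FPKM (SD, n = 3) in Ctrl cells and at 17.9 ± 1.5 FPKM in MIR21-KO cells (FDR 0.115). EBI3 passed the threshold without MIR21-KO replicate 1 (log2 fold change -0.90, FDR 0.00765).

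Of 11 receptors of the members or of the gp130 family, the 5 that could be tested, IL6R, IL11RA, LIFR, IL6ST and OSMR, belong to that family. CXCR1, CXCR2, ACKR1, ACKR2, CCR2 and CCR6 were not high enough to be tested, 6 of the 11 receptors having at most 3 reads in each library. IL6ST was at means of 18.8 and 18.0 FPKM in Ctrl and MIR21-KO (FDR 0.767), OSMR at 20.6 and 18.3 FPKM (FDR 0.402), IL6R at 1.57 and 1.83 FPKM (FDR 0.381) and LIFR at 1.07 and 1.57 FPKM (FDR 0.258). IL11RA, the specific receptor of IL-11, rose from 0.835 ± 0.154 to 2.37 ± 0.325 FPKM (SD, n = 3; log2 fold change 1.40 ± 0.19, SE; FDR 0.00245). Its call was lost without Ctrl replicate 1 (FDR 0.0122) or 3 (0.0144) or MIR21-KO replicate 2 (0.0163). IL11 and its receptor were thus both higher, the receptor at a low level.

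Of 13 signal transducers and targets of the IL-6 family 12 were tested, of which 2 rose, beside 7.66% of all genes, none fell, and the median log2 fold change was 0.31. The count was 4 without MIR21-KO replicate 3, and 1 without Ctrl replicate 1, 2 or 3 or MIR21-KO replicate 2. JUNB, an AP-1 subunit induced by STAT3, was at 35.3 ± 3.5 FPKM in Ctrl and rose to 76.5 ± 6.5 FPKM (SD, n = 3), a log2 fold change of 1.12 ± 0.11 (SE; FDR 0.000656). FOSL2, another AP-1 subunit, rose from 38.2 ± 2.1 to 56.7 ± 4.0 FPKM, or by 0.57 ± 0.08 (SE; FDR 0.00337) on the log2 scale. SOCS3, the feedback inhibitor of gp130 signaling, was at means of 13.6 and 17.4 FPKM (FDR 0.0490), STAT3 at 29.4 and 32.3 FPKM (FDR 0.317) and JAK1 at 43.0 and 28.4 FPKM (FDR 0.0141), none of them called. JUNB was called in each of the 18 alternatives with a fold change, whereas FOSL2 was lost without Ctrl replicate 1 (FDR 0.0136), 2 (0.0210) or 3 (0.0229) or MIR21-KO replicate 2 (0.0230).

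Among genes of the NF-kappaB pathway, 1 of 9 subunits and kinases and 4 of 13 feedback genes were called, beside 16% of all genes. The subunit or kinase called was MAP3K14, the kinase NIK of the noncanonical pathway, which fell from 19.0 ± 0.6 to 13.0 ± 0.9 FPKM (SD, n = 3; log2 fold change -0.55 ± 0.08, SE; FDR 0.00277). RELA was at means of 19.1 and 19.5 FPKM (FDR 0.826), and 7 of the 9 had a negative log2 fold change (median -0.37), beside 8243 of the 16006 genes tested. Of the feedback genes 2 rose and 2 fell (median -0.24). TNFAIP3, the ubiquitin-editing inhibitor A20, had a log2 fold change of 0.94 ± 0.12 (SE; FDR 0.00185) and BCL3, an atypical IkappaB, of 0.81 ± 0.12 (SE; FDR 0.00305). BIRC3, the ubiquitin ligase cIAP2, had one of -1.52 ± 0.19 (SE; FDR 0.00172) and NFKBIA, the classical inhibitor IkappaB-alpha, of -0.62 ± 0.11 (SE; FDR 0.00768). No call in these NF-kappaB lists held throughout: none of the 5 genes was called without Ctrl replicate 1 or 3 or without MIR21-KO replicate 2 (FDRs 0.0101 to 0.0355), and without Ctrl replicate 2 MAP3K14, BCL3 and NFKBIA were lost (FDRs 0.0140, 0.0176 and 0.0355). NFKBIA was also lost with no filter on low values (FDR 0.0162) and in limma without trend and robust fitting (FDR 0.0180).

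Of 19 other inducible inflammatory targets 10 were tested, of which 2 were higher (7.66% of all genes) and 2 lower (8.38% of all genes), with a median of 0.18. The count called, 4, was 6 with voom, with scaling by total reads, among protein-coding genes alone and when MIR21-KO replicate 3 was left out. PTGS2, which encodes the prostaglandin synthase COX-2, fell from 12.3 ± 0.5 to 2.64 ± 0.65 FPKM (SD, n = 3; log2 fold change -2.21 ± 0.17, SE; FDR 0.000291), a change as large as that of IL6 and opposite in sign. LCN2, the siderophore-binding lipocalin, was at 11.8 ± 2.7 FPKM in Ctrl and fell to 4.40 ± 0.51 FPKM (log2 fold change -1.39 ± 0.18, SE; FDR 0.00200). CD40, a costimulatory receptor, rose from 1.79 ± 0.17 to 4.97 ± 0.39 FPKM, which is 1.43 ± 0.12 (SE) as a log2 fold change (FDR 0.000458), and SOD2, the mitochondrial superoxide dismutase, from 13.0 ± 0.2 to 22.4 ± 1.2 FPKM, or 0.78 ± 0.07 (SE; FDR 0.000564) on the log2 scale. PTGS2, CD40 and SOD2 were called in all 18 alternatives, and LCN2 was lost without Ctrl replicate 3 (FDR 0.0122) or MIR21-KO replicate 2 (0.0116).

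Of 10 regulators that bind AU-rich elements or act in decay, 1 rose and 2 fell, beside 16% of all genes called, with a median of -0.28. ZFP36L1, a decay factor related to tristetraprolin, rose from 79.9 ± 2.5 to 114 ± 8 FPKM (SD, n = 3; log2 fold change 0.52 ± 0.08, SE; FDR 0.00469). KHSRP, which promotes decay, fell from 71.4 ± 2.5 to 53.2 ± 1.3 FPKM, or by -0.43 ± 0.07 (SE; FDR 0.00466) on the log2 scale, and ELAVL1, the stabilizing protein HuR, from 20.8 ± 0.7 to 15.9 ± 0.5 FPKM, or by -0.39 ± 0.07 (SE; FDR 0.00621). ZFP36 itself was at means of 10.5 and 11.9 FPKM (FDR 0.548). All 3 calls were lost without Ctrl replicate 1, 2 or 3 or without MIR21-KO replicate 2 (FDRs 0.0223 to 0.0369), and in limma without trend and robust fitting (FDRs 0.0116, 0.0130 and 0.0177). That of ELAVL1 was also lost with no filter on low values (FDR 0.0127). The plot of the pathway lists shows called genes on both sides of 0 in 4 of the 9 lists other than the members.

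**Figure D4:**
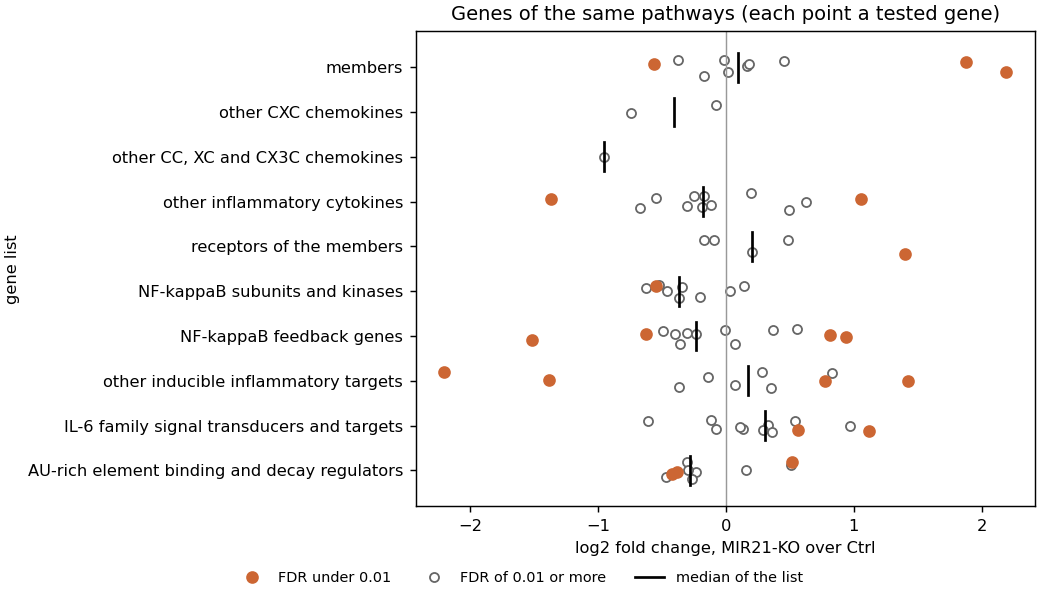
Log2 fold change (MIR21-KO over Ctrl) of every tested gene of the members and of 9 related lists, each point a gene, filled where the FDR was under 0.01, with the median of each list as a vertical bar. The medians lie between -0.96 for the other CC, XC and CX3C chemokines, a list with 1 tested gene, and 0.31 for the IL-6 family signal transducers and targets.

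Markers of other cell types were low. The summed level of 12 leukocyte markers was 3.82 to 4.52 FPKM in Ctrl and 3.81 to 5.73 FPKM in MIR21-KO, most of it CD14, and 6 of the 12 had no read in any library. The summed level of 11 fibroblast and endothelial markers was 7.63 to 8.37 FPKM in Ctrl and 13.1 to 13.2 FPKM in MIR21-KO, where THY1 went from 2.28 ± 0.21 to 7.15 ± 1.16 FPKM (SD, n = 3; FDR 0.000590) and 6 of the 11 had at most 3 reads in each library. THY1 accounted for most of this difference, and the other tested markers were not called, with log2 fold changes of -0.19 for LUM (FDR 0.506) and 0.18 for COL1A1 (FDR 0.334). The summed level of 11 lung epithelial and A549 markers was 2193 to 2340 FPKM in Ctrl and 1478 to 1931 FPKM in MIR21-KO, and CDH1, which encodes E-cadherin, went from 8.18 ± 0.58 to 2.86 ± 0.15 FPKM (FDR 0.000175). CDH1 was the only one called of the 8 tested, a count that was 3 with voom and 4 without MIR21-KO replicate 3. KRT18 (log2 fold change -0.69, FDR 0.0153) and AKR1B10 (-0.43, FDR 0.0176) were lower in MIR21-KO without overlap of the groups, but were not called. Of these 8, 6 had a negative log2 fold change and 2 a positive one, KRT19 (0.29, FDR 0.206) and NAPSA (0.18, FDR 0.674). The part of these differences in the changes of IL6, IL11 and CXCL3 was not tested.

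**Figure D5:**
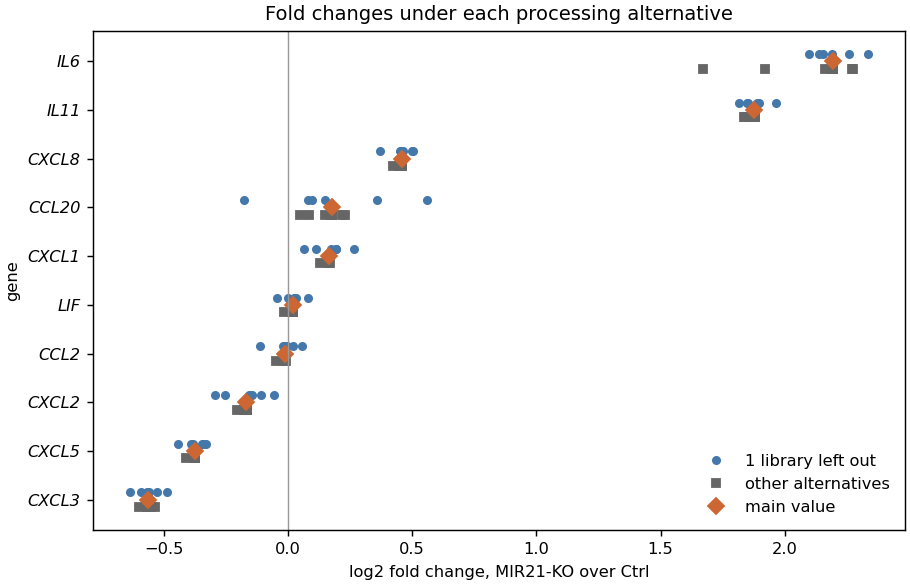
Log2 fold change of each member (MIR21-KO over Ctrl) in the test as described and under 18 alternatives, of which 6 leave out a library and 12 change the filter, pseudocount, scaling, model, gene set or pairing (16 for CCL20, which 2 of the filters remove). IL6 stays between 1.67 and 2.33 and IL11 between 1.81 and 1.97, whereas CCL2, CCL20 and LIF fall on both sides of 0.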

How the data were processed

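PolyA RNA-seq of 6 A549 libraries was used, 3 per group, with groups and replicate numbers taken from the sample titles. The authors deposited FPKM values and gene lengths for 58174 genes. The submitters' processing notes list cutadapt 1.14, HISAT2 2.1.0, SAMtools 1.5, featureCounts 1.5.3, edgeR 3.18.1 and the build hg38. The annotation release and the treatment of reads shared between genes are not given in the sources used here. The deposited log2 fold changes, p-values and FDRs of the authors were not used. FPKM times length gave whole reads (tolerance 0.01) for 100% of values.

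The members and gene lists were chosen with earlier results of these data known. The 16006 genes whose mean reached 0.5 FPKM were tested by limma 3.58.1, run in R 4.3.3, on log2(FPKM + 0.1) (eBayes with trend and robust fitting, no covariate), and called at an FDR under 0.01. The procedure was run on simulated reads with the same spread in both groups. The real MIR21-KO libraries were more spread than Ctrl, so that run does not measure the errors of these fits. Alternatives were other filters, pseudocounts, scalings and models, voom on recovered reads, protein-coding genes only, a replicate block and leaving out each library. Named in the text are all members, up to 4 called genes of each list by size of change, and other chemokines and cytokines at 5 FPKM or more. Further genes of the lists, given with their values, were chosen after these were seen. Gene identifiers matched GENCODE 29 (GRCh38) for 57836 genes (99.42%). Promoters and the microRNA were taken from RefSeq (GRCh38.p14). Plots were made in Python 3.11.15 using matplotlib 3.10.9.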

Additional observations from a re-analysis of the deposited data

How the results depend on the processing

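IL6 and IL11 were called higher in all 18 alternatives, and CXCL3 was called lower in 11. Members called numbered 3 as reported, and 5 (3 higher, 2 lower) with voom or at an FDR under 0.05. No member was called lower without the filter on low values or with limma without trend and robust fitting, which left 0 of them. At an FDR under 0.05, 5114 genes were called (2428 higher, 2686 lower). Leaving out a library gave 2 to 5 members called, 0 to 2 of them lower, and 768 to 3400 genes called (388 to 1599 higher, 368 to 1801 lower). Same-numbered libraries did not deviate together (correlations of -0.17, -0.02 and -0.02). These values give no sign of pairing by number, but cannot show that same-numbered libraries were handled apart. With a replicate block 651 genes were called (379 higher, 272 lower), and members called were 2, with 0 lower. Of the genes named, CXCL3, CSF2, IL15, IL11RA, MAP3K14, BCL3, NFKBIA, FOSL2, ZFP36L1, KHSRP and ELAVL1 were not called with the block. The sign of LIF turned with scaling by total reads (-0.017). Leaving out a library gave LIF log2 fold changes of -0.045 to 0.079, CCL2 of -0.11 to 0.057, CCL20 of -0.18 to 0.56 and MIF of -0.38 to 0.0087. The cause was not tested. Depth limits CCL20 in particular.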
